A study of Homo sapiens with 60 samples.

Results

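The well-expressed long non-coding RNAs (lncRNAs) of the human cell line 1321N1 were 86 genes out of 62703 in the count table. They were the lncRNA genes whose mean over all 60 libraries was at least 20 CPM (counts scaled to a common library total of all genes). GAS5, ZFAS1, and the genes named SNHG, which host small nucleolar RNAs, were left out by name. Other hosts of such RNAs were not searched for and may remain among the members. Of 18874 lncRNA genes in the table, 8350 had at least 1 count, 101 reached the limit, and 15 of these were left out by name. The members were chosen by their mean level, so levels are given here as a description. Just inside the limit lay DLEU2 and ENSG00000260257, both at 20.1 CPM, and just outside it ENSG00000230551 at 19.6 CPM. For 5 members the mean over the non-treated libraries alone was under the limit, and they passed only through their level in treated cells: TRIM16L (13.6 CPM), LINC00662 (18 CPM), LINC02693 (18.7 CPM), ENSG00000286523 (19.5 CPM), and ENSG00000268205 (19.7 CPM). No weight is placed on the rise of these members as a group.

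1321N1 is an astrocyte-derived line from a human brain tumor, and 1 line was studied. Cells received 2.55 μM sodium metaarsenite (arsenic), 2.3 μM cadmium chloride (cadmium), or 20 μM mercury chloride (mercury), or were left non-treated, for 1.5, 3, 6, 12, or 24 h. Each of the 20 groups had 3 libraries of 3′ mRNA sequencing, which reads the end of polyadenylated transcripts, and treatments were done in triplicate. The sample labels do not say whether the 3 libraries came from separate cultures, and if they did not, p-values measure technical spread only. A bulk library cannot tell fewer cells carrying a transcript from less of it per cell. Several astrocyte markers were at or near 0 (GFAP 0.0317 CPM, S100B 0.0052 CPM, SLC1A2 0.114 CPM, AQP4 and ALDH1L1 0 CPM in all libraries), and SLC1A3 was at 1.03 CPM. Others were present, namely GJA1 (21.1 CPM), SOX9 (77 CPM), CD44 (384 CPM), and VIM (4404 CPM). Neuronal, microglial, and oligodendrocyte markers had means of at most 0.377 CPM, except SYT1 at 11.3 CPM.

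LncRNAs are transcripts without a known protein product. Some build or populate nuclear bodies, some act in the cytoplasm as binding platforms for proteins, some carry microRNAs in their introns or exons, and many arise from the promoter of a protein-coding gene but run in the other direction. Because many are nuclear and short-lived, their steady level can follow a change in transcription closely. Others are copies of protein-coding genes, and short reads cannot always tell the copy from its parent.

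Total counts ranged from 2215276 to 4404609 per library, so that members near the limit rest on few reads. The members together made up 0.494% to 0.985% of a library's counts. MALAT1 alone gave a median of 51% of them, with a mean of 3874 CPM, followed by NEAT1 (410 CPM), ENSG00000289942 (364 CPM), CYTOR (153 CPM), MIR23AHG (117 CPM), ENSG00000290018 (106 CPM), and LINC01133 (100.1 CPM). NORAD, FGD5-AS1, and LNCAROD completed the 10 highest at 98.2, 98.2, and 76 CPM. Only 7 members reached 100 CPM and 68 were under 50 CPM. These values count transcript ends and were not divided by length.

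Before any comparison, 2 libraries stood furthest apart in the nuclear members. Transcripts of the mitochondrial genome made up 1.91% of counts in arsenic 3 h replicate 2 and 1.35% in cadmium 6 h replicate 1, against 3.83% to 7.94% in the other 58 libraries. MALAT1 measured 1558 CPM in arsenic 3 h replicate 2 beside 4758 and 4493 CPM in the other replicates of its group, and NEAT1 measured 110 CPM beside 560 and 587 CPM. In cadmium 6 h replicate 1, MALAT1 was at 1741 CPM beside 4219 and 3854 CPM, and NEAT1 at 174 CPM beside 609 and 674 CPM. MIR23AHG, MIRLET7A1HG, and PGM5P2 were low in the same libraries, so that 5 of the 86 members were more than 0.8 on the log2 scale under the mean of the other replicates in both. The counts of members called below, 0 with arsenic at 3 h and 1 with cadmium at 6 h, were the same without these libraries. Without arsenic 3 h replicate 2 the log2 fold change (LFC) of NEAT1 at 3 h with arsenic went from 0.22 ± 0.29 (SE) to 0.65 ± 0.26 (adjusted p = 0.517), and without cadmium 6 h replicate 1 its LFC at 6 h with cadmium went from 0.38 ± 0.29 to 0.79 ± 0.27 (adjusted p = 0.137). For MALAT1 the same steps moved the LFC from -0.20 to 0.15 and from -0.31 to 0.00. Arsenic 6 h replicate 3, the library at 3.83%, was low to a lesser extent. MALAT1 measured 2547 CPM there beside 4263 and 4086 CPM, and NEAT1 317 CPM beside 646 and 602 CPM. Across all 60 libraries, deviations of NEAT1 and MALAT1 from their group means correlated with those of the mitochondrial share (r = 0.852 and 0.798). The median over members was -0.007, and 6 members reached 0.5 or more. These correlations include arsenic 3 h replicate 2 and cadmium 6 h replicate 1. They were not computed without them, so they do not show a relation among the other libraries.

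**Figure D1:**
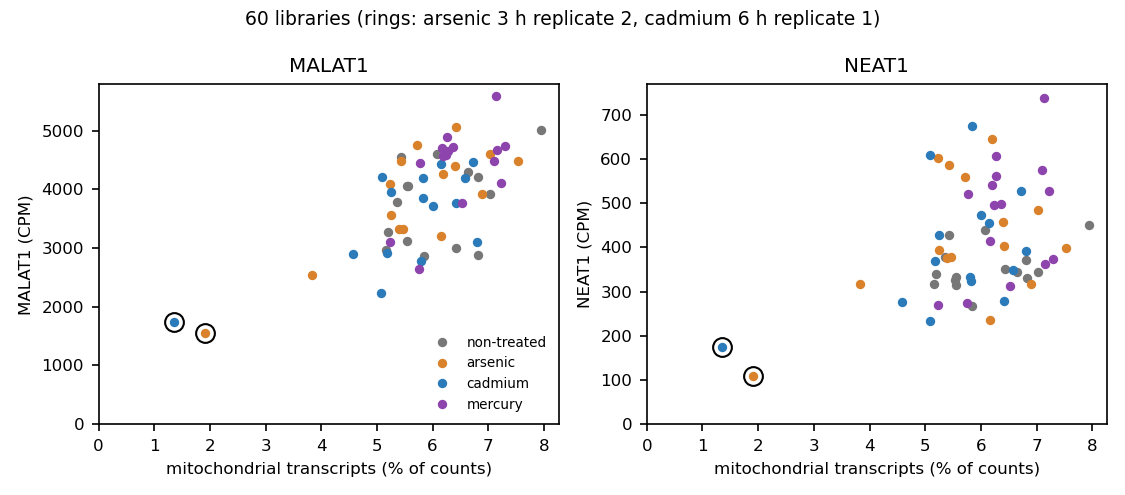
Level of MALAT1 (left) and NEAT1 (right) in CPM against the share of counts from the mitochondrial genome in percent, with each of the 60 libraries as a point colored by treatment. The ringed libraries, arsenic 3 h replicate 2 and cadmium 6 h replicate 1, lie at 1.91% and 1.35% and hold the lowest values of both RNAs.

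Treated libraries were set against the non-treated ones taken at the same hour, and a member was called at an adjusted p under 0.05. The number of members called rose with time for arsenic and mercury, whereas for cadmium it was highest at 12 h. With arsenic, 0 members were called at 1.5 h (0.0729% of all 12341 genes tested) and 0 at 3 h (0.138%), where 6 and 7 had an unadjusted p under 0.05 and DESeq2 also called 0. Arsenic then called 1 member at 6 h (0.916%), 8 at 12 h (4.11%), and 17 at 24 h (14.3%). The 17 were 9 higher (6.54% of all genes) and 8 lower (7.75%).

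With cadmium, 0 members were called at 1.5 h (0%), with 10 at an unadjusted p under 0.05 and 0 by DESeq2. Cadmium called 1 member at 3 h (0.203%), 1 at 6 h (2.05%, and 2 without cadmium 6 h replicate 2), 12 at 12 h (8.18%), then 3 at 24 h (2.19%). Of the 12 at 12 h, 9 were higher (5.19%) and 3 lower (2.99%). Leaving out non-treated 12 h replicate 1 reduced the 12 to 7, all higher, and leaving out non-treated 24 h replicate 2, cadmium 24 h replicate 1, or cadmium 24 h replicate 2 reduced the 3 to 1.

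With mercury, 0 members were called at 1.5 h (0.567%), with 9 at an unadjusted p under 0.05 and 0 by DESeq2. Mercury called 2 members at 3 h (1.55%), 11 at 6 h (7.48%), 19 at 12 h (16%), then 31 at 24 h (27.8%). At 24 h, 15 were higher (13.9%) and 16 lower (13.9%). The 11 at 6 h became 6 without non-treated 6 h replicate 1 and 7 without mercury 6 h replicate 1, and the 2 at 3 h became 1 without any of non-treated replicates 1 and 2 or mercury replicates 1 and 3. At 24 h, 19.8%, 3.49%, and 36% of members were called for arsenic, cadmium, and mercury, beside the 14.3%, 2.19%, and 27.8% of all genes, and whether the shares differ was not tested. The genes tested reached down to lower counts than the members, so the shares were not matched for level. The median member LFC at 24 h was 0.04 under arsenic, 0.01 under cadmium, and 0.01 under mercury, beside 0.00, -0.01, and -0.02 over all genes. No median of the members was far from that of all genes.

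**Figure D2:**
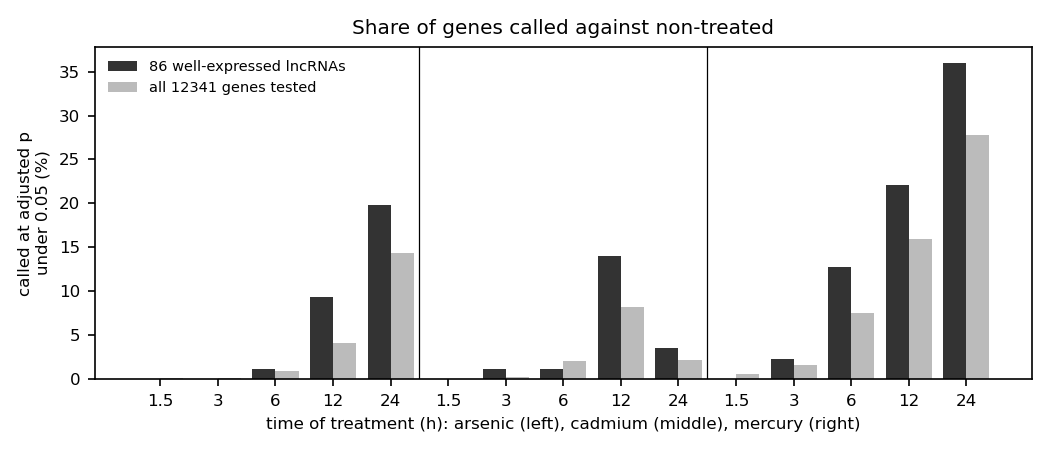
Percent of the 86 members (dark bars) and of all 12341 genes tested (light bars) called at an adjusted p under 0.05 at each time point in hours, for arsenic, cadmium, and mercury from left to right. The members reached 19.8% with arsenic and 36% with mercury at 24 h, beside 14.3% and 27.8% of all genes, and cadmium peaked at 12 h.

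Over all time points, 18 members were called with arsenic (15.8% of all genes), 13 with cadmium (9.87%), and 38 with mercury (34.1%), and 44 with any metal (39.8%). Of the 44, 20 were only higher, 22 only lower, and 2 went both ways with mercury. For those 2, the higher calls were weak: PGM5P2 at 3 h held in 1 of 6 fits without a library, and PCCA-DT at 12 h in 2 of 6. An LFC above 1 or below -1 was reached by 12 members (11.6% of all genes), 6 with arsenic (3.65%), 2 with cadmium (2.26%), and 9 with mercury (9.44%). Among the 12, TRIM16L, LINC00662, and ENSG00000286523 passed the level limit only through their level in treated cells. The count of 12 is therefore not evenly comparable with the share of all genes, and no support is drawn from these rises. The 12 members are described below with their values, beside the best-known members. The comparisons of the metals at a given time share the same 3 non-treated libraries.

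**Figure D3:**
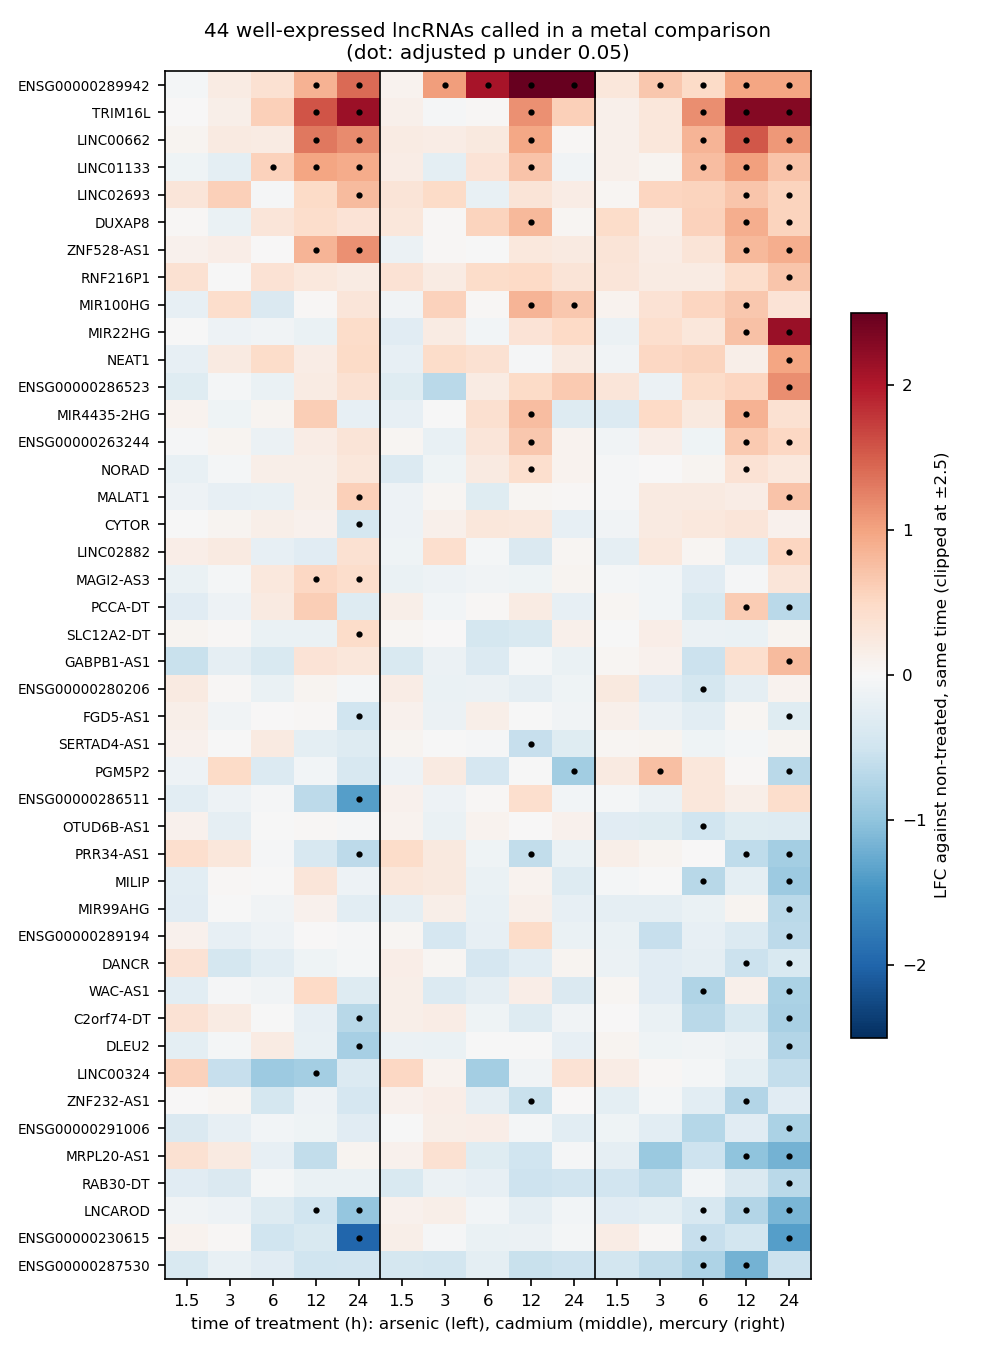
LFC against non-treated cells of the same time for the 44 members called in at least 1 metal comparison, with a row for each member and a column for each time in hours (arsenic, cadmium, mercury from left to right). Red is higher and blue lower, the color scale ends at 2.5 in either direction, and a dot marks an adjusted p under 0.05; ENSG00000289942 is the member that rises with cadmium at 4 time points, and MIR22HG has its largest rise at 24 h with mercury.

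The member with the largest change was ENSG00000289942, an unnamed gene of a single exon at chr4:68376551-68376665 (GRCh38, plus strand, 115 bases). It rose with cadmium from 3 h on, and its annotated sequence is nearly that of the end of the MT2A transcript. MT2A encodes a metallothionein, a small cysteine-rich protein that binds cadmium and zinc. The gene lies just downstream of the metallothionein pseudogene MT2P1 on the same strand. The sequence is shown because it differs from the end of MT2A at few positions. It is read from the genome, and the capitals mark the bases that differ from MT2A in the alignment.

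ENSG00000289942: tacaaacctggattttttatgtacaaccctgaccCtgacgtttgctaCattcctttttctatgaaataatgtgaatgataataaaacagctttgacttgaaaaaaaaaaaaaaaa

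Bases 2 to 100 aligned to the last bases of MT2A with 97 identical positions, 2 mismatches, and 1 gap (97% identity), beside 82.5% for MT1F, the next closest metallothionein by identical bases. At 24 h ENSG00000289942 measured 102, 108, and 121 CPM in non-treated cells, 253, 299, and 327 CPM with arsenic, 1390, 1420, and 1438 CPM with cadmium, and 212, 225, and 201 CPM with mercury. No treated library overlapped the non-treated ones, and the cadmium libraries lay far above all others. With cadmium the LFC was 1.05 ± 0.13 at 3 h (adjusted p = 8.02e-08), 2.06 ± 0.13 at 6 h (6.38e-20), 3.23 ± 0.14 at 12 h (1.8e-29), reaching 3.72 ± 0.14 at 24 h (1.52e-32). MT2A had LFCs of 1.81, 2.16, 2.66, and 3.71 in the same comparisons. Under arsenic, MT2A had LFCs of 0.55 at 12 h (adjusted p = 0.0845) and 1.69 at 24 h (1.5e-10). Under mercury, MT2A had LFCs of 0.65 at 3 h (0.053) and 1.50 at 6 h (8.47e-09). Its mercury LFCs were 0.36 at 12 h (0.199) and 0.74 at 24 h (0.00169), so the 2 genes were less alike outside cadmium. With arsenic ENSG00000289942 rose by 0.87 ± 0.14 at 12 h and 1.41 ± 0.14 at 24 h, and with mercury by 0.68, 0.49, 0.99, and 0.99 from 3 h to 24 h, each called, of which the call at 6 h held in 4 of 6 fits that left out a library. Its counts were 2.39% to 9.17% of those of MT2A in every library (median 6.4%). Of its 50-base windows, 4.55% are found without a mismatch in MT2A, and how many of its reads came from MT2A was not tested. In non-treated cells it fell by 0.74 ± 0.14 between 1.5 h and 24 h (adjusted p = 0.000477), and the rise at 24 h is relative to this lower level.

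TRIM16L (chr17:18697998-18736118, plus strand) is a partial copy of TRIM16, which encodes a ubiquitin ligase of the tripartite motif family. It passed the level limit only through its level in treated cells, so its rise is given as a description. TRIM16L was higher with all 3 metals. Non-treated libraries measured 19.2, 14.1, and 17.8 CPM at 24 h, arsenic 77.9, 92, and 55.9 CPM, cadmium 23.4, 23.8, and 28.8 CPM, and mercury 82, 77.9, and 85.4 CPM. Arsenic and mercury were each above every non-treated library by several fold, and cadmium only slightly. The LFC was 1.57 ± 0.23 at 12 h (adjusted p = 4.29e-07) and 2.14 ± 0.22 at 24 h (3.24e-12) with arsenic. With mercury it was 1.17 ± 0.23 at 6 h (0.000202), 2.30 ± 0.22 at 12 h (4.94e-13), then 2.30 ± 0.22 at 24 h (8.39e-14). Cadmium raised it at 12 h (1.15 ± 0.24, adjusted p = 0.000406), and at 24 h the LFC was 0.60 ± 0.23 (0.192). Of the 50-base windows near its transcript ends, 44.1% also occur in TRIM16 and 68.6% in any other gene. TRIM16 itself had LFCs of 0.74 ± 0.20 with arsenic and 1.56 ± 0.20 with mercury at 12 h. Reads from TRIM16L and TRIM16 are uncertain where these stretches are the same.

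LINC00662 (chr19:27681072-27794005, minus strand) rose with every metal by 12 h. It measured 17.2, 17.1, and 16.7 CPM in non-treated cells at 12 h, 44.1, 38.8, and 45.1 CPM with arsenic, 27.5, 31.9, and 35.8 CPM with cadmium, and 50.9, 53.5, and 42.1 CPM with mercury. No treated library reached down to the non-treated ones. This is a description, because LINC00662 passed the level limit only through its level in treated cells. The LFCs at 12 h were 1.33 ± 0.19 with arsenic (adjusted p = 6e-07), 0.97 ± 0.20 with cadmium (0.000415), and 1.55 ± 0.19 with mercury (2.67e-09). At 24 h arsenic (1.19 ± 0.19) and mercury (1.08 ± 0.19) were still called, and the cadmium libraries (19.3, 21.8, and 18.2 CPM) overlapped the non-treated ones (24.1, 12.3, and 23.4 CPM). Only 0.66% of its windows were found in other genes.

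LINC01133 (chr1:159958035-159984750, plus strand) was the only member called with arsenic at 6 h. It showed the same order as LINC00662, with the arsenic and mercury rise kept to 24 h and the cadmium rise seen at 12 h. At 12 h non-treated cells measured 69.7, 73.1, and 88.3 CPM, arsenic 142, 147, and 170 CPM, cadmium 121, 126, and 113 CPM, and mercury 151, 159, and 151 CPM. All 9 treated libraries were above the 3 non-treated ones. With arsenic the LFC was 0.57 ± 0.12 at 6 h (adjusted p = 0.0022), 0.99 ± 0.11 at 12 h (4.48e-10), then 0.93 ± 0.11 at 24 h (6.3e-10), and the call at 6 h was lost without non-treated 6 h replicate 2. With mercury it was 0.78, 1.03, and 0.72 at these times, each with an SE between 0.11 and 0.12. With cadmium it was 0.71 ± 0.11 at 12 h (5.4e-06) and -0.08 ± 0.11 at 24 h (0.849). The difference between the cadmium effects at 24 h and 12 h was itself called (-0.79, adjusted p = 0.0084, among 0.381% of all genes). For LINC00662 the same difference was not called (-0.95, adjusted p = 0.134). None of the windows of LINC01133 were shared with other genes.

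ZNF528-AS1 (chr19:52388836-52397791, minus strand), which starts 58 bases from the zinc finger gene ZNF528 on the other strand, rose with arsenic and mercury. At 24 h it measured 28.5, 16.2, and 27.9 CPM in non-treated cells, 53, 61.9, and 46.9 CPM with arsenic, and 47.4, 40.5, and 45.7 CPM with mercury. These groups did not overlap, whereas cadmium (24.5, 23, and 36.4 CPM) overlapped the non-treated libraries. The LFC was 0.84 ± 0.24 at 12 h (adjusted p = 0.0273) and 1.15 ± 0.23 at 24 h (0.000194) with arsenic, and 0.82 ± 0.25 (0.0138) and 0.92 ± 0.24 (0.00193) with mercury. The calls at 12 h were lost in 3 of 6 fits without a library for arsenic and in 4 of 6 for mercury. ZNF528 had LFCs of 0.63 and 0.10 at 24 h, and neither passed the test.

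ENSG00000286523 (chrX:96127747-96372889, minus strand) was called with mercury at 24 h. It measured 10.4, 19.3, and 12.8 CPM in non-treated cells and 27.5, 32, and 31.9 CPM with mercury, with an LFC of 1.16 ± 0.25 (adjusted p = 0.000212). The groups did not overlap, which is given as a description, because this member passed the level limit only through its level in treated cells. In the arsenic and cadmium libraries of that time it lay between 14.5 and 26 CPM, and neither was called.

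**Figure D4:**
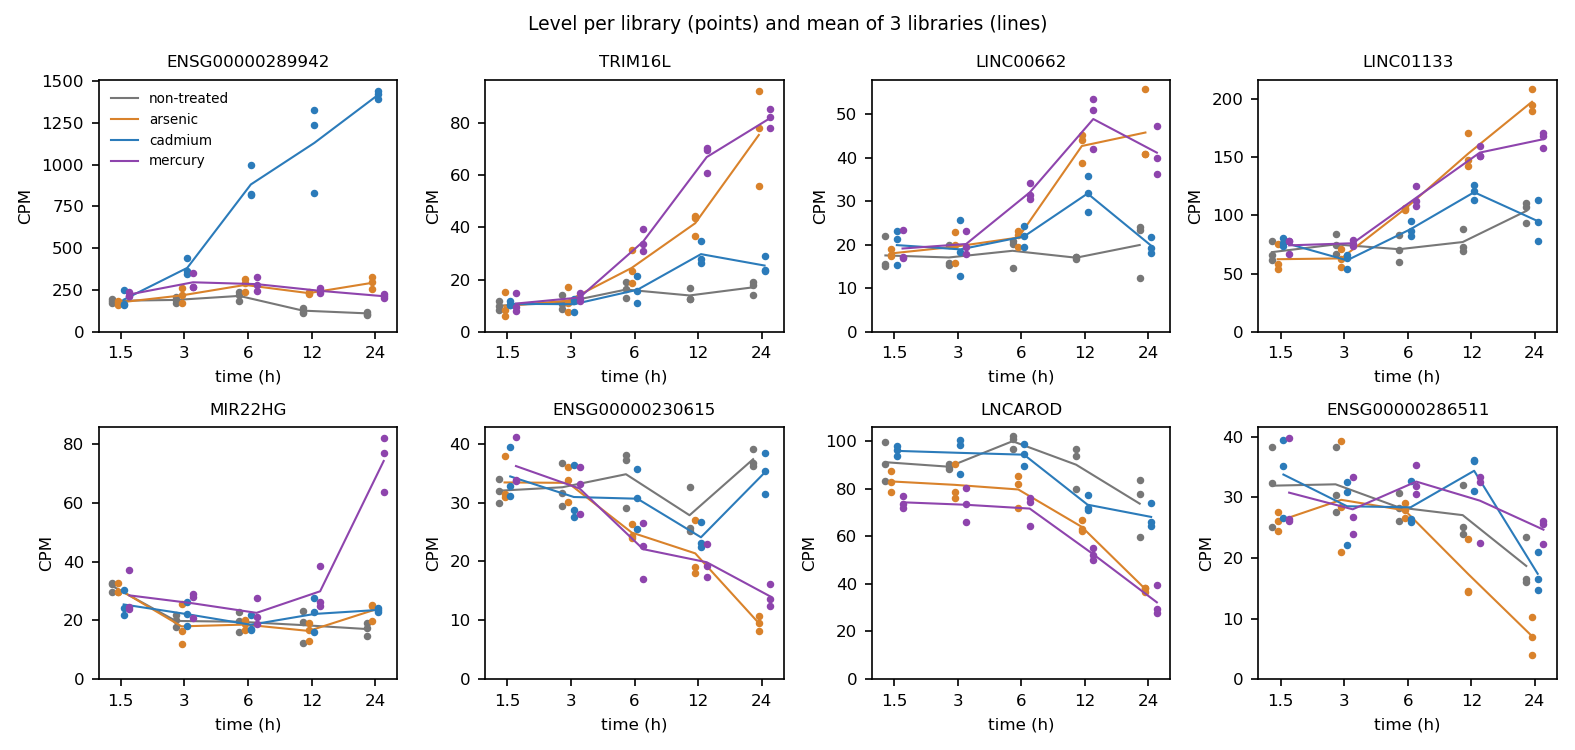
Level in CPM of 8 members by time of treatment in hours, with a point for each library, a line through the mean of the 3 libraries, and a color for each treatment. ENSG00000289942 climbs to 1390 to 1438 CPM with cadmium, TRIM16L, LINC00662, and LINC01133 climb with arsenic and mercury, MIR22HG with mercury at 24 h, and the last 3 panels show falls.

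Among the members that fell, ENSG00000230615 (chr1:44030414-44115913, plus strand) had the largest change. It overlaps the start of SLC6A9, which encodes the glycine transporter GLYT1 and runs on the other strand, and the starts of the genes lie 1053 bases apart. At 24 h it measured 39.1, 36.8, and 36.2 CPM in non-treated cells, 10.8, 9.55, and 8.16 CPM with arsenic, 38.4, 31.5, and 35.4 CPM with cadmium, and 16.2, 12.4, and 13.5 CPM with mercury. Arsenic and mercury libraries were all far under the non-treated ones, and cadmium overlapped them. The LFC was -1.98 ± 0.19 with arsenic (adjusted p = 3.67e-13), -0.05 ± 0.16 with cadmium (0.95), and -1.37 ± 0.18 with mercury (4.54e-09). The arsenic LFC at 12 h was -0.38, and the difference between 24 h and 12 h was called (-1.59, adjusted p = 0.000115, among 1.57% of all genes). The mercury call at 6 h (-0.58 ± 0.17) held in 2 of 6 fits without a library.

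LNCAROD (chr10:52450874-52755509, minus strand) fell with arsenic and mercury. With mercury the LFC was -0.40 ± 0.11 at 6 h (adjusted p = 0.0148), -0.74 ± 0.12 at 12 h (1.01e-06), reaching -1.15 ± 0.12 at 24 h (8.8e-12), of which the call at 6 h was lost in 3 of 6 fits without a library. With arsenic it was -0.49 ± 0.11 at 12 h (0.00258) and -0.97 ± 0.12 at 24 h (2.54e-09). The difference between the effects at 24 h and 12 h was not called with arsenic (-0.48, adjusted p = 0.124) or mercury (-0.41, adjusted p = 0.337). At 24 h the level was 77.8, 83.7, and 59.6 CPM in non-treated cells, 38.1, 36.7, and 38.4 CPM with arsenic, 74, 66.1, and 64.2 CPM with cadmium, and 39.3, 27.8, and 29.6 CPM with mercury. Cadmium overlapped the non-treated libraries, and arsenic and mercury did not. No window of LNCAROD near its ends was shared with another gene.

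ENSG00000286511 (chr6:108798929-108837113, plus strand) was the member whose fall was called with arsenic and not with mercury at a size above 1. At 24 h it measured 16.1, 16.6, and 23.4 CPM in non-treated cells, 4.05, 6.94, and 10.3 CPM with arsenic, and 25.6, 22.3, and 26.1 CPM with mercury. The arsenic libraries were under all others and the mercury libraries overlapped the non-treated ones. The LFC was -1.38 ± 0.26 with arsenic (adjusted p = 5.12e-05) and 0.45 ± 0.22 with mercury (0.121). The direct comparison of arsenic with mercury at 24 h gave -1.82 ± 0.25 (9.72e-08).

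ENSG00000287530 and MRPL20-AS1 fell with mercury. ENSG00000287530 (chr13:23954493-23970188, plus strand) measured 30.9, 30.5, and 35 CPM in non-treated cells at 12 h and 20.9, 7.6, and 13.9 CPM with mercury, an LFC of -1.18 ± 0.23 (adjusted p = 0.000122). Its LFC at 6 h was -0.77 ± 0.22 (0.0174), a call that held in 3 of 6 fits without a library, and at 24 h it was -0.54 ± 0.22 (0.057). MRPL20-AS1 (chr1:1399515-1402046, plus strand) measured 22.8, 28.8, and 19.3 CPM in non-treated cells at 24 h and 11.2, 9.36, and 9.66 CPM with mercury. Those groups did not overlap, and the LFC was -1.18 ± 0.28 (0.00074). It was also called lower at 12 h (0.00341), a call that held in 5 of 6 fits. With arsenic the LFC of MRPL20-AS1 at 24 h was 0.07 ± 0.25, and the direct comparison with mercury was called (1.25 ± 0.28, adjusted p = 0.00109).

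MALAT1 and NEAT1 lie next to each other on chromosome 11 (chr11:65497688-65506516 and chr11:65422774-65445540, plus strand). MALAT1 gathers in nuclear speckles, where splicing factors are stored, and NEAT1 is the scaffold on which paraspeckles assemble. Counts were per gene from polyadenylated RNA, so different forms of each RNA were not told apart. The nuclear bodies themselves were not measured. At 24 h MALAT1 measured 2869, 3128, and 2881 CPM in non-treated cells, 4600, 4486, and 4395 CPM with arsenic, 2788, 3101, and 2915 CPM with cadmium, and 5589, 4103, and 4489 CPM with mercury. The arsenic and mercury libraries were all higher and the cadmium libraries were not. The LFC of MALAT1 was 0.60 ± 0.21 with arsenic (adjusted p = 0.0423) and 0.72 ± 0.21 with mercury (0.00674). The arsenic call was lost whichever of the 6 libraries was left out (adjusted p up to 0.118) and with DESeq2 (0.0657), and the mercury call was lost in 1 of 6 fits without a library.

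NEAT1 measured 267, 326, and 371 CPM in non-treated cells at 24 h, 484, 399, and 457 CPM with arsenic, 332, 391, and 370 CPM with cadmium, and 737, 528, and 576 CPM with mercury. Arsenic and mercury did not overlap the non-treated libraries. The LFC was 0.98 ± 0.29 with mercury (adjusted p = 0.00709) and 0.47 ± 0.29 with arsenic (0.297). The share of mitochondrial transcripts, with which both RNAs were low in the libraries set apart above, was 5.54% to 6.81% in non-treated cells at 24 h, 6.4% to 7.53% with arsenic, 5.18% to 6.8% with cadmium, and 7.1% to 7.23% with mercury. Its part in the rise of MALAT1 and NEAT1 was not tested.

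Genes for the proteins of these bodies were counted beside them. Of 19 paraspeckle protein genes tested, 1 was higher and 6 were lower with mercury at 24 h (13.9% of all genes in either direction, median LFC -0.15 beside -0.02), among them PSPC1 (-0.82 ± 0.24) and RBMX (-0.72 ± 0.13), and EWSR1 was the higher one (0.37 ± 0.08). With arsenic 0 were higher and 1 was lower, and with cadmium none was called, beside 14.3% and 2.19% of all genes. The same shares of all genes apply to the lists that follow. Of 8 nuclear speckle genes, SRRM1 was lower with arsenic (-0.28 ± 0.07) and mercury (-0.34 ± 0.07), and no other was called at 24 h. Of 21 genes of the nuclear RNA exosome and its adaptors, which degrade many unstable lncRNAs, 3 were higher and 2 lower with mercury, 1 was higher with arsenic, and none was called with cadmium. ZCCHC8, a scaffold of the nuclear exosome targeting complex, had LFCs of 0.99 ± 0.23 with mercury and 0.98 ± 0.23 with arsenic. Of 13 genes of nonsense-mediated decay tested, 1 was higher and 1 lower with mercury, 2 were lower with arsenic, and none was called with cadmium.

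Of 8 members grouped by name as microRNA host genes, 3 were only higher and 3 only lower in the metal comparisons, and 2 were not called, where 39.8% of all genes were called with any metal. Mature microRNAs also lie within DANCR (miR-4449) and GABPB1-AS1 (miR-4712), which are described with other members below. A host transcript carries the microRNA hairpin, and the mature microRNA is cut from it, so that the values below are of the host and not of the microRNA, which 3′ sequencing of polyadenylated RNA does not measure. Mature microRNAs (RefSeq, GRCh38.p14) are shown for the called hosts of this group, to show which hosts carry the same seed. The capitals mark the seed, bases 2 to 8.

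hsa-miR-22-3p (in MIR22HG): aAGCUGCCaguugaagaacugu
hsa-miR-100-5p (in MIR100HG): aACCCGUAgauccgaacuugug
hsa-miR-99a-5p (in MIR99AHG): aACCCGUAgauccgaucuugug
hsa-let-7a-5p (in MIR100HG): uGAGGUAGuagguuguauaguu
hsa-let-7c-5p (in MIR99AHG): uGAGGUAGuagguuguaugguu
hsa-miR-125b-5p (in both): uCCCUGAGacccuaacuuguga
hsa-miR-15a-5p (in DLEU2): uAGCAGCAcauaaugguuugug
hsa-miR-16-5p (in DLEU2): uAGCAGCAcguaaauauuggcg
hsa-miR-4435 (in CYTOR and MIR4435-2HG): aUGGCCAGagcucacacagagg

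MIR22HG (chr17:1711447-1717174, minus strand) had the largest change of the hosts. At 24 h it measured 17.4, 19, and 14.8 CPM in non-treated cells, 25.3, 24.9, and 20 CPM with arsenic, 23.6, 24.1, and 23 CPM with cadmium, and 82.3, 77, and 63.8 CPM with mercury. The mercury libraries stood clear of the rest. The LFC with mercury was 2.16 ± 0.21 (adjusted p = 1.3e-13), beside 0.45 ± 0.22 with arsenic (0.176) and 0.51 ± 0.22 with cadmium (0.289). Mercury was above arsenic and cadmium in the direct comparisons, where arsenic minus mercury was -1.71 ± 0.20 (6.21e-10) and cadmium minus mercury -1.66 ± 0.20 (8.2e-10). The mercury effect at 24 h was larger than at 12 h (0.73 ± 0.21) by 1.43 (adjusted p = 0.00581, among 0.624% of all genes). In non-treated cells MIR22HG fell by 0.88 ± 0.22 from 1.5 h to 24 h (0.0106).

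MIR100HG and MIR99AHG are paralogous hosts whose microRNAs share 3 seeds, as the sequences show, and their calls went in different directions. MIR100HG measured 18.1, 21.1, and 28.4 CPM in non-treated cells at 12 h, 29.7, 46.5, and 39.2 CPM with cadmium, and 29.7, 37.7, and 38.1 CPM with mercury. It was higher with cadmium at 12 h (0.85 ± 0.19, adjusted p = 0.00145) and 24 h (0.67 ± 0.19, 0.0346) and with mercury at 12 h (0.68 ± 0.19, 0.00796). The cadmium call at 24 h held in 1 of 6 fits without a library. MIR99AHG measured 46.9, 46, and 35 CPM in non-treated cells at 24 h and 21.8, 28.7, and 27.1 CPM with mercury, an LFC of -0.68 ± 0.18 (0.0032). At 24 h with mercury MIR100HG had an LFC of 0.35 ± 0.19 (0.173), and the difference between the hosts was not tested.

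DLEU2, the host of miR-15a and miR-16-1, was lower at 24 h with arsenic (-0.83 ± 0.21, adjusted p = 0.00263) and mercury (-0.73 ± 0.21, 0.0045). It measured 21, 26.4, and 26.1 CPM in non-treated cells, 14.8, 12.7, and 13.6 CPM with arsenic, and 14.7, 15.1, and 12.9 CPM with mercury, without overlap. CYTOR and MIR4435-2HG arose by duplication on chromosome 2, and 52.5% of the windows near the ends of CYTOR are also in MIR4435-2HG, so that their reads are uncertain. CYTOR measured 152, 151, and 143 CPM in non-treated cells at 24 h and 96.8, 113, and 121 CPM with arsenic (-0.43 ± 0.12, adjusted p = 0.00566), a call that held in 5 of 6 fits. MIR4435-2HG was higher at 12 h with cadmium (0.78 ± 0.22, 0.0133) and mercury (0.88 ± 0.21, 0.00184), and the cadmium call held in 3 of 6 fits. MIR23AHG and MIRLET7A1HG were not called with any metal. MIR23AHG was lower in non-treated cells at 12 h (84, 74, and 100.3 CPM) than at 1.5 h (144, 182, and 163 CPM), with an LFC of -0.89 ± 0.23 (0.0137, beside 4.09% of all genes).

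Of 4 members that act in the cytoplasm or are linked to translation, 2 were called with a metal (39.8% of all genes were). NORAD, which binds PUMILIO proteins, was higher at 12 h with cadmium (0.42 ± 0.12, adjusted p = 0.0239) and mercury (0.37 ± 0.12, 0.0315), and each call held in 2 of 6 fits without a library. DANCR was lower with mercury at 12 h (-0.54 ± 0.13, 0.0025) and 24 h (-0.38 ± 0.13, 0.0245). It measured 71.4, 59.7, and 70.6 CPM in non-treated cells at 12 h and 41.3, 50.7, and 43.3 CPM with mercury, without overlap. The DANCR call at 24 h held in 2 of 6 fits. OIP5-AS1 and EPB41L4A-AS1 were not called in any metal comparison, and at 24 h their LFCs lay between -0.15 and 0.32. JPX and CRNDE were also not called, with LFCs at 24 h between -0.11 and 0.30.

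Antisense and divergent members often start beside a protein-coding gene. For 26 members a protein-coding gene started within 5000 bases on the other strand, and 21 of these neighbors were tested. Reads were counted by strand, so a gene and its antisense partner were kept apart. The clearest contrast was ENSG00000230615, which fell at 24 h with arsenic and mercury (-1.98 and -1.37) where SLC6A9 rose by 2.51 and 2.10 (adjusted p = 2.1e-14 and 1.03e-11). MILIP (chr17:81927829-81930753, plus strand) starts 94 bases from MAFG, which encodes a small MAF protein that pairs with NRF2. MILIP measured 50, 41.7, and 38.8 CPM in non-treated cells at 24 h and 24.3, 21.1, and 22.6 CPM with mercury, an LFC of -0.90 ± 0.19 (0.00012), where MAFG had an LFC of 1.86 (1.11e-18). With arsenic the LFC of MILIP was -0.12 ± 0.18 (0.71) beside 1.17 for MAFG (2.37e-10).

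WAC-AS1 (chr10:28522652-28533066, minus strand), beside WAC, was lower with mercury at 6 h (-0.75 ± 0.16, adjusted p = 0.0008) and 24 h (-0.80 ± 0.17, 0.000115), and WAC had an LFC of 0.61 at 24 h (2.26e-08). It measured 40.2, 42.6, and 49.8 CPM in non-treated cells and 23.7, 22.6, and 27.4 CPM with mercury, without overlap, but 39.3% of its windows occur in other genes, mainly RPL7L1. GABPB1-AS1 and GABPB1, which encodes a subunit of the GA-binding protein, were called in the same direction with mercury at 24 h (0.80 ± 0.23 and 0.73). For ZNF528-AS1, FGD5-AS1, PCCA-DT, RAB30-DT, and MRPL20-AS1 the member was called with mercury at 24 h and the neighbor was not, and for CRNDE, SERTAD4-AS1, PSMA3-AS1, and SLC16A1-AS1 the neighbor was called and the member was not. FGD5-AS1 had an LFC of -0.49 ± 0.11 with arsenic (0.000802) and -0.30 ± 0.11 with mercury (0.0289), and the mercury call held in 2 of 6 fits without a library. No single direction therefore held for members and their neighbors.

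**Figure D5:**
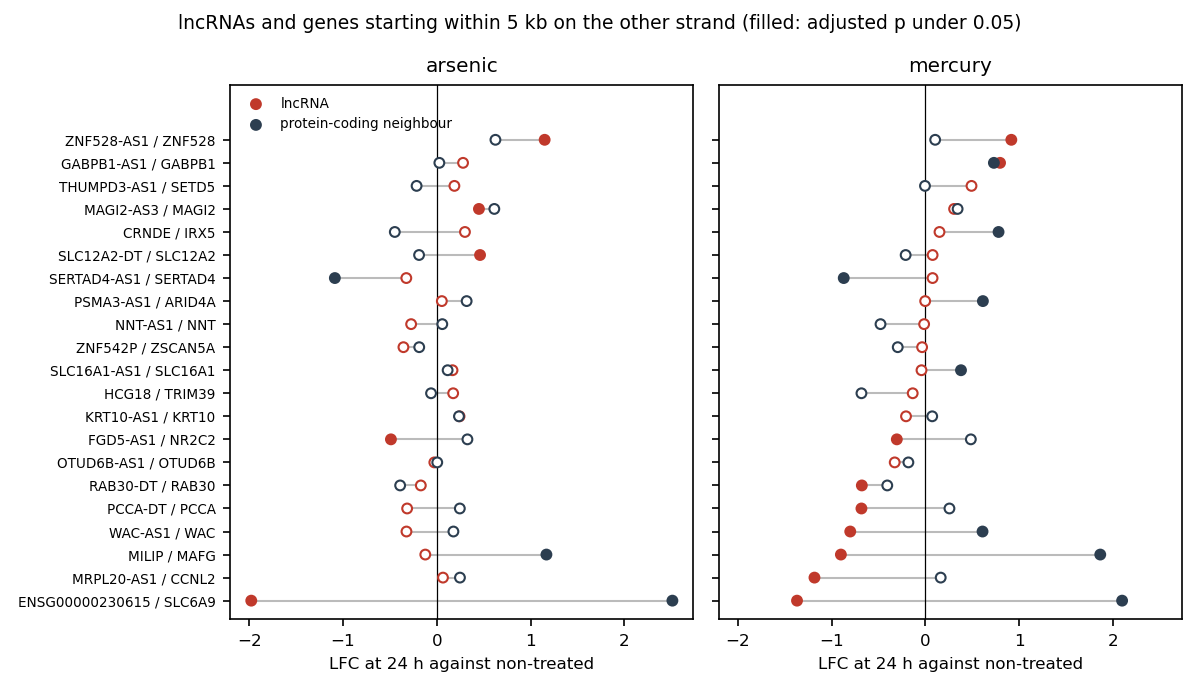
LFC at 24 h with arsenic (left) and mercury (right) of 21 members (red) and of the tested protein-coding gene that starts within 5 kb on the other strand (dark), with a line joining each pair and filled points at an adjusted p under 0.05. ENSG00000230615 and SLC6A9 lie at -1.98 and 2.51 with arsenic, and MILIP and MAFG at -0.90 and 1.86 with mercury.

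Several other members share sequence with another gene, and their values are uncertain. Of the windows near the end of ENSG00000290018 (106 CPM), 96.3% occur in H3-3A, a histone H3.3 gene, and the member was not called with any metal. ENSG00000263244 overlaps HAPSTR1 on the same strand, and all of its windows occur in HAPSTR1. It was higher with mercury at 24 h (0.52, adjusted p = 0.0122) where HAPSTR1 had an LFC of 1.03. DUXAP8 shares 61.5% of its windows with DUXAP10, which had a mean of 0.13 CPM, and was higher at 12 h with cadmium (0.80 ± 0.19, 0.0029) and mercury (0.90 ± 0.19, 0.000258).

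The metals differed from each other directly at 24 h. Between arsenic and cadmium, 13 members were called (10.2% of all genes), 6 higher (4.2%) and 7 lower (5.96%) with arsenic. Between arsenic and mercury, 9 were called (11.4%), 4 higher (4.59%) and 5 lower (6.78%) with arsenic. Between cadmium and mercury 21 were called (20%), 10 higher (9.7%) and 11 lower (10.3%) with cadmium. ENSG00000289942 was lower with arsenic than with cadmium by an LFC of -2.32 ± 0.13 (adjusted p = 6.65e-23) and higher with cadmium than with mercury by 2.73 ± 0.14 (7.29e-26). TRIM16L was higher with arsenic than with cadmium (1.54 ± 0.21, 4.3e-08), LINC00662 likewise (1.16 ± 0.19, 4.31e-06), and LINC01133 likewise (1.01 ± 0.11, 7.43e-11). TRIM16L and LINC00662 passed the level limit only through treated cells, so their values are given as a description. LNCAROD was lower with arsenic than with cadmium (-0.90 ± 0.12, 4.3e-08). ENSG00000230615 was lower with arsenic than with mercury (-0.61 ± 0.21, 0.0458), a call that was lost with DESeq2 (0.0517) and held in 1 of 6 fits without a library.

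Time alone moved few members. Against 1.5 h, non-treated cells had 0 members called at 3 h (0.122% of all genes) and 0 at 6 h (0.486%), with 5 and 18 at an unadjusted p under 0.05. At 12 h 3 were called (4.09%), ENSG00000289942, MIR23AHG, and MIR22HG, each lower. At 24 h 5 were called (3.29%), 2 higher (1.84%) and 3 lower (1.45%), none with an LFC above 1 or below -1. The 5 became 3 without non-treated 1.5 h replicate 2, non-treated 1.5 h replicate 3, or non-treated 24 h replicate 1. Those higher were LINC01133 (0.61 ± 0.12, adjusted p = 0.000566) and ENSG00000288899 (0.77 ± 0.23, 0.0474), and those lower were ENSG00000289942, MIR22HG, and ENSG00000286511. The last fell by 0.76 ± 0.22 (0.0319), a call that held in 2 of 6 fits without a library. The call of ENSG00000288899 held in 1 of 6. The fall of ENSG00000286511 with arsenic is relative to the non-treated level at 24 h.

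The members not called with any metal were 42, and the largest LFC of each of them in either direction lay between 0.197 and 1.01. The member at 1.01 was ENSG00000291113, of whose windows 73.4% occur in other genes, mainly THOC3. A p that misses the threshold does not show that these members did not change.

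Promoter sequences (RefSeq, GRCh38.p14, 250 bases before to 50 after the start) were given for 50 of the 86 members and for 6 of the 12 with an LFC above 1 or below -1. They were searched on both strands for a heat shock element (GAANNTTC), an antioxidant response element (TGACNNNGC), metal response elements (TGCACNC and TGCGCNC), and a C/EBP-ATF response element (TGATGNAA). Among all 35116 promoters the shares with a match were 6.77%, 13.3%, 29.6%, and 3.62%, and among the 50 members 4, 10, 20, and 3 had a match. A member was counted when any of its promoters matched, and some members had several promoters. The shares count single promoters, so the member counts cannot be set directly against them. Of the 6 with a large LFC, ZNF528-AS1 and LINC00662 held a metal response element match, and LINC01133 and LNCAROD a C/EBP-ATF response element match, the latter at a RefSeq start 284976 bases from the start of LNCAROD in the count table. The promoter of LINC01133, chr1:159960974-159961273 on the plus strand, is shown because this member rose with all 3 metals and none of its windows occur in another gene. The capitals mark the C/EBP-ATF response element match just past the start. This RefSeq start lies 3189 bases from the start of the gene in the count table, so it may not be the start in use.

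LINC01133: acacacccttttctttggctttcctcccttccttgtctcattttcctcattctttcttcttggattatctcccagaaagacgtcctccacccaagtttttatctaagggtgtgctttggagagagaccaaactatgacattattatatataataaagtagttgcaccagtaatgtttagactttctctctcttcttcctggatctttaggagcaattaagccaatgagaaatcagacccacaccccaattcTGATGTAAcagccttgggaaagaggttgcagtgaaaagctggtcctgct

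A match is a run of letters and not a site shown to be bound.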

How the data were processed

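RNA of 1321N1 cells was sequenced with QuantSeq 3′ mRNA-Seq in 60 libraries. The authors aligned reads to GRCh38 with STAR 2.7.9a and counted them by strand on exons of the basic GENCODE annotation with GenomicAlignments in Union mode, which drops reads over more than 1 gene, and ignored secondary alignments. The deposited table holds raw whole-number counts, with 92 spike-in rows at 0 counts, and positions are those of that table.

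The members and lists were chosen with earlier results of these data known. The named members were those called with an LFC above 1 or below -1, the 10 highest by level, and a list of well-known lncRNAs. Others, such as MILIP, WAC-AS1, DUXAP8, and MIR99AHG, were chosen after their values were seen.

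A model with 20 group coefficients was fitted to all 60 libraries (edgeR 4.0.16, R 4.3.3). filterByExpr (minimum count 10, minimum total 15) kept 12341 genes, all 86 members included. TMM factors lay between 0.934 and 1.03 (common BCV 0.12). P-values of the quasi-likelihood test were corrected per comparison (Benjamini-Hochberg), and SE was the LFC divided by the root of F. DESeq2 1.42.0 was an alternative. Windows of 50 bases in the last 400 bases of each transcript were compared across GENCODE 44 transcripts. The fit was tested on simulated data. No replicates were copies: chi-square over degrees of freedom was at least 2.02 in every replicate pair. Deviations of same-numbered treated and non-treated libraries of the same hour had a median correlation of -0.008 (from -0.278 to 0.0837, 45 pairs). Taken over all genes tested, such values cannot show whether the numbers marked a shared culture or batch. The main fit did not pair samples.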

Additional observations from a re-analysis of the deposited data

Results flagged for a closer look

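The effect of a metal at 24 h was compared with its effect at 12 h by an interaction term in the fit over all genes, and 5 members differed in 6 tests. The calls among all genes were 1.57% with arsenic, 0.381% with cadmium, and 0.624% with mercury. ENSG00000230615 had an LFC of -1.98 at 24 h and -0.38 at 12 h with arsenic, a difference of -1.59 (adjusted p = 0.000115). LINC01133 had an LFC of -0.08 at 24 h and 0.71 at 12 h with cadmium, a difference of -0.79 (0.0084). MIR22HG had an LFC of 2.16 at 24 h and 0.73 at 12 h with mercury, a difference of 1.43 (0.00581). PCCA-DT was higher at 12 h (0.63) and lower at 24 h (-0.68) with mercury, a difference of -1.32 (0.0232). The mercury call held in 2 of 6 fits without a library at 12 h and in 4 of 6 at 24 h. The non-treated libraries had 58, 54, and 85 raw counts of PCCA-DT at 12 h and 119, 108, and 94 at 24 h, so its non-treated level moved as well. WAC-AS1 differed by -0.83 with arsenic (0.041), from 0.50 at 12 h to -0.32 at 24 h, and by -0.92 with mercury (0.0461), from 0.12 to -0.80. Its non-treated libraries measured 27.9, 23.3, and 35 CPM at 12 h and 40.2, 42.6, and 49.8 CPM at 24 h.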

How the results depend on the processing

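Of 154 called values of members, 85 stayed called under every alternative run, and none changed direction. Calls were lost in 3 values with DESeq2, 2 with RLE size factors, 20 without a filter on low counts, 1 with a filter at a mean of 5 CPM, and 22 with the 6 libraries of each comparison alone. Asking for an LFC above 1 or below -1 as well reduced the members called over all times to 6 for arsenic, 2 for cadmium, and 9 for mercury, at 24 h to 6, 1, and 7, in the direct comparisons to 6 (arsenic and cadmium), 3 (arsenic and mercury), and 7 (cadmium and mercury), and in non-treated cells to 0. Choosing the members by their level in the non-treated libraries alone gave 18, 11, and 36 over all times and 17, 3, and 29 at 24 h. Without a filter the non-treated count was 9 in place of 5, and the cause was not tested.

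Leaving out each library in turn gave 14 to 19 members for arsenic, 8 to 14 for cadmium, and 35 to 39 for mercury over all times. At 24 h the ranges were 13 to 16 for arsenic, 1 to 3 for cadmium, and 26 to 30 for mercury, in the direct comparisons 9 to 12 (arsenic and cadmium), 6 to 8 (arsenic and mercury), and 16 to 21 (cadmium and mercury), and in non-treated cells 3 to 7. The 8 came without non-treated 12 h replicate 1. Fewer libraries also reduce the degrees of freedom.

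With the replicate block the counts at 24 h were 17, 3, and 31, over all times 18, 13, and 38, in the direct comparisons 13, 9, and 21, and in non-treated cells 5, as without it. The count with mercury at 3 h was 3 with the block and 2 without it, and no other count in a metal comparison changed.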

Other observations

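In arsenic 3 h replicate 2 and cadmium 6 h replicate 1, 28 of 6461 genes with a mean of at least 20 CPM were more than 0.8 on the log2 scale under the mean of the other replicates in both libraries, and 1 gene was above by as much in both. Of the 28, 19 were mitochondrial transcripts or the mitochondrial pseudogene MTATP6P1, and 5 were members (NEAT1, MALAT1, MIR23AHG, MIRLET7A1HG, and PGM5P2). The libraries and the limit were chosen after the values were seen.

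ENSG00000291113 ranged from 1.37 to 40.5 CPM over the 60 libraries. At 24 h its non-treated libraries measured 8.55, 8.58, and 33.8 CPM, so that replicates of a group differed by more than the groups. PGM5P2 was called in both directions with mercury, higher at 3 h (53.9 to 73.7 CPM beside 36.9 to 45.7 CPM) and lower at 24 h (23.8 to 27.2 CPM beside 39.9 to 46.5 CPM). The call at 3 h was lost with DESeq2 (adjusted p = 0.0686) and held in 1 of 6 fits without a library. The call at 24 h held in 4 of 6.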
